A study of Mus musculus with 19 samples.

Results

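The glycolytic enzymes described here are Hk1, Hk2, Pfkm, Pfkp, Aldoa, Pgk1, Eno1, Pkm, Ldha and Ldhb, measured in mouse brain through every probe set that lists one of them as its single gene symbol. Of these 10 genes, 9 were found, on 21 probe sets, among 18193 genes with such a probe set. Eno1 was not analysed here, because the annotation used pairs no probe set with Eno1 alone. One further probe set lists Hk1 among several symbols and was not used. A probe set was tested if its mean log2 intensity over all arrays was at least 4, and all 21 passed this minimum.

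Brain RNA of male mice went onto 19 Affymetrix arrays of a single colour, in 4 groups. Mice were wild type (wt) or SCA3 transgenic, the latter named for spinocerebellar ataxia type 3, a neurodegenerative disease caused by an expanded glutamine tract in ataxin-3. Starting at 5 weeks of age and for 6 weeks, they received 3 intraperitoneal injections a week of CCI-779 at 20 mg/kg or of placebo. CCI-779, also called temsirolimus, is a rapamycin ester that inhibits the growth kinase mTOR. Placebo was given to 4 of the wt samples and 5 of the SCA3 samples, and CCI-779 to 5 of either genotype. The labels do not name the promoter or the line of the transgene, and they do not state that each array is a separate mouse. The p-values therefore measure only how far these samples spread, and that spread may be technical.

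Glycolysis splits glucose into pyruvate in the cytosol and yields ATP and NADH on the way. Hexokinase traps glucose in the cell as its phosphate, phosphofructokinase commits it to the pathway, aldolase cleaves the hexose, phosphoglycerate kinase and pyruvate kinase make ATP, and lactate dehydrogenase interconverts pyruvate and lactate. In brain, glucose is the main fuel, and Hk1, which binds to mitochondria, is the prevailing hexokinase. mTOR signalling is known to raise glycolytic gene expression in many cell types through the transcription factors HIF1 and MYC, both of which read short DNA motifs that contain ACGTG or CACGTG.

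These motifs were looked for in the 250 bases upstream of the members' annotated starts (RefSeq, GRCm38.p6), on both strands, where each CACGTG also counts as an ACGTG match on either strand. ACGTG was found in 8 of 20 member promoters (40.0%), belonging to 6 of the 10 genes, and in 16.6% of all 32851 promoters of the same length. Some members have several starts, and starts of 1 gene can share bases. Promoters of 3 genes are shown, because their genes stand for the different outcomes below: Pgk1 (2 of 3 probe sets lower under CCI-779), Ldha (no call) and Ldhb (some probe sets higher). Capitals mark ACGTG, its reverse complement CACGT, or CACGTG.
Pgk1, chrX:106186850-106187099, plus strand: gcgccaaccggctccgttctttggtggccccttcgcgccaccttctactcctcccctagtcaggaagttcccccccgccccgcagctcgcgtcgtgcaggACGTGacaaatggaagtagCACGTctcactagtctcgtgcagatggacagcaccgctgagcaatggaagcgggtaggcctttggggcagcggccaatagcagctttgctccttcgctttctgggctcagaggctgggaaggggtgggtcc
Ldha, chr7:46845554-46845803, plus strand: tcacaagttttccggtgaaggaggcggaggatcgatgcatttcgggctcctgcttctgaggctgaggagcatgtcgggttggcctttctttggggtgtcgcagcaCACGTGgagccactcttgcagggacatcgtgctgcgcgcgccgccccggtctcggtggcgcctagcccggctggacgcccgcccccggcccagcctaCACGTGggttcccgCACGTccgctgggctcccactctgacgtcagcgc
Ldhb, chr6:142507958-142508207, minus strand: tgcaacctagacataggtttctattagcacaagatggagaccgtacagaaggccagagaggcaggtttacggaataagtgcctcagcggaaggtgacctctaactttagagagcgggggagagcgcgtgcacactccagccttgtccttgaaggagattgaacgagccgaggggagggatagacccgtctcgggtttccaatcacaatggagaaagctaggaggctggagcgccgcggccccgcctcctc
The Pgk1 promoter holds 2 ACGTG matches, the Ldha promoter shown holds 5 through 2 CACGTG motifs and 1 lone ACGTG, and that of Ldhb holds none. Ldha has 2 annotated starts, and the one not shown has no match. Neither start of Hk1 has a match, and the windows of Pfkp and Eno1 have none. A match is a stretch of letters and not a measured binding site.

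Before the members, 3 arrays need naming because they stood apart over all tested probe sets. On the first principal component wt CCI-779 replicate 1 scored -66.3, and the other 18 arrays lay between -23.2 and 25.2. On the second, SCA3 CCI-779 replicates 2 and 5 scored -42.4 and -39.2, while the other 17 arrays scored above -6.8. These 3 arrays are all from treated groups, and values without them are given beside member calls and marker counts that change when they are left out. Several array measures also moved with the drug: the mean log2 intensity of 18 hybridisation spike-in probe sets was 10.5 ± 0.09 (SD, n = 5) in SCA3 CCI-779 against 11.4 ± 0.18 (n = 5) in SCA3 placebo, and 10.2 ± 0.26 (n = 5) in wt CCI-779 against 11.1 ± 0.29 (n = 4) in wt placebo. The 3′ minus 5′ difference of Gapdh, a sign of RNA integrity and labelling, was -0.35 and -0.28 under CCI-779 and -0.52 and -0.54 under placebo in SCA3 and wt. Among the wt CCI-779 arrays it was 0.28 in replicate 1 and -0.44 to -0.39 in the other 4. The 3′ minus 5′ difference of actin was 2.55 in wt CCI-779 replicate 1, 0.96 and 0.88 in SCA3 CCI-779 replicates 2 and 5, and at least 1.19 in the other 16 arrays. The spike-ins read 9.97 to 10.65 on the treated arrays and 10.88 to 11.60 on the placebo arrays, without overlap. The Gapdh difference was -0.44 to 0.28 and -0.58 to -0.47, also without overlap. Effects of CCI-779 and of array handling therefore cannot be told apart here. The part of these measures in the results was not tested.

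Markers of cell types also differed with the drug. Of 10 oligodendrocyte and myelin markers, 5 fell in SCA3 mice given CCI-779 (among them Cnp by 0.57 and Ugt8a by 0.75 on the log2 scale) and 0 passed in wt, where 1 fell after quantile normalization and 2 after centring each array on its median. In the interaction of genotype and drug 0 of the 10 passed (smallest adjusted p = 0.518, limma). Without SCA3 CCI-779 replicates 2 and 5, 4 of the 10 fell in SCA3, and without wt CCI-779 replicate 1 as well 6 did. The log2 of their summed linear intensities was 16.2 to 16.3 in SCA3 CCI-779, 16.4 to 16.8 in SCA3 placebo, 16.1 to 16.4 in wt CCI-779 and 16.3 to 16.6 in wt placebo. In such a sum bright genes like Mbp (mean log2 15.3) weigh far more than dim ones like Olig2 (9.15). The sums of other markers below were taken in the same way. Of 9 microglial markers 5 fell in SCA3 (6.09% of all genes did) and 3 in wt (1.64%). In SCA3 1 fell without replicates 2 and 5, and 4 fell without wt CCI-779 replicate 1 as well. In wt 4 fell without these 3 arrays, and 5 fell after quantile normalization or centring. The microglial sums were 11.60 to 11.99 under CCI-779 and 12.12 to 12.30 under placebo over both genotypes. Neuronal markers, the defining ones of this tissue, summed to between 16.6 and 16.8 in all 4 groups, and of 10 such genes 2 rose and 1 fell in each genotype (11.0% and 6.09% of all genes did in SCA3, 11.5% and 1.64% in wt). In SCA3 no neuronal marker passed in limma without replicates 2 and 5, and in wt 0 rose and 1 fell after centring. Without SCA3 CCI-779 replicates 2 and 5, 2 rose and 2 fell in wt. Of 8 meningeal and fibroblast markers 3 rose in SCA3 (2 without those replicates) and 1 in wt. Of 9 astrocyte markers 1 rose in SCA3, and 1 also fell after quantile normalization or centring. In wt 2 astrocyte markers rose, and 1 did after either of these or without the 3 arrays named above. Of 6 choroid plexus markers 1 fell in SCA3 (0 without replicates 2 and 5, 2 after quantile normalization or centring) and 0 passed in wt. Of 5 endothelial markers 0 passed in either genotype. Of 9 skeletal muscle markers 7 were below the minimum level (Ckm, Myh1, Myh2, Myh4, Tnnt3, Mylpf and Myl1), while Acta1 at 4.74 and Pvalb at 11.27, which interneurons also express, were above it. Of the 4 blood markers with a probe set, Hba-a1 and Hba-a2 were below the minimum, and Alas2 at 6.20 and Slc4a1 at 4.10 were above it. In whole tissue, fewer cells of a type and less RNA per cell cannot be told apart, and the part of these markers in the members' values was not tested.

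A minority of the glycolytic probe sets differed between CCI-779 and placebo, in both directions, and those that passed differed by at most 1.39-fold. In SCA3 mice 6 of 21 member probe sets (28.6%) passed an adjusted p of 0.05 in limma, beside 15.2% of all 20473 tested probe sets, with 3 higher (background 10.2%) and 3 lower (background 4.95%). In wt mice 4 of 21 (19.0%) passed, beside 11.9% of all, with 2 higher (background 9.78%) and 2 lower (background 2.11%). Hk1 and 2 probe sets of Ldhb were higher and 2 probe sets of Pgk1 and 1 of Aldoa were lower in SCA3, while in wt Hk1 and 1 other probe set of Ldhb were higher and the same 2 probe sets of Pgk1 were lower. The median log2 difference of the 21 was 0.02 in SCA3, where it was 0.01 over all tested probe sets, and 0.01 in wt, where it was 0.05. An unadjusted p under 0.05 was reached by 9 of the 21 member probe sets in SCA3 (30.4% of all tested probe sets) and by 6 of the 21 in wt (28.9%). The balance of directions over all probe sets depends on scaling: higher calls were 67.4% of all calls in SCA3 and 82.2% in wt, and 44.7% and 45.2% after centring each array on its median.

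Counted once per gene, by the probe set with the highest mean, 1 of 9 genes passed in SCA3 (Hk1), beside 17.1% of 10454 genes, and 2 of 9 passed in wt (Hk1 and Ldhb), beside 13.1%. After quantile normalization 2 of the 9 were higher in SCA3 and 2 in wt. After centring each array on its median, 1 was higher and 1 lower in each genotype. Without SCA3 CCI-779 replicates 2 and 5, a comparison added after seeing the data, 1 of the 21 member probe sets passed in SCA3 (Pgk1 1438640_x_at) and 5.88% of all tested probe sets did. Without wt CCI-779 replicate 1 as well, 2 passed in SCA3, 0 higher and 2 lower, and 11.4% of all did.

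Of the 21 member probe sets, 9 carry the suffix x, which in Affymetrix naming marks sets with probes that can also match other transcripts. Of the 6 calls in SCA3, 4 were on such sets, as were 2 of the 4 in wt, including all 3 that were lower in SCA3 and both that were lower in wt. Their values are uncertain as measures of the named gene. As background, several glycolytic genes have near-identical processed copies in the genome. None of the 6 member probe sets without any letter suffix passed in either genotype.

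**Figure D1:**
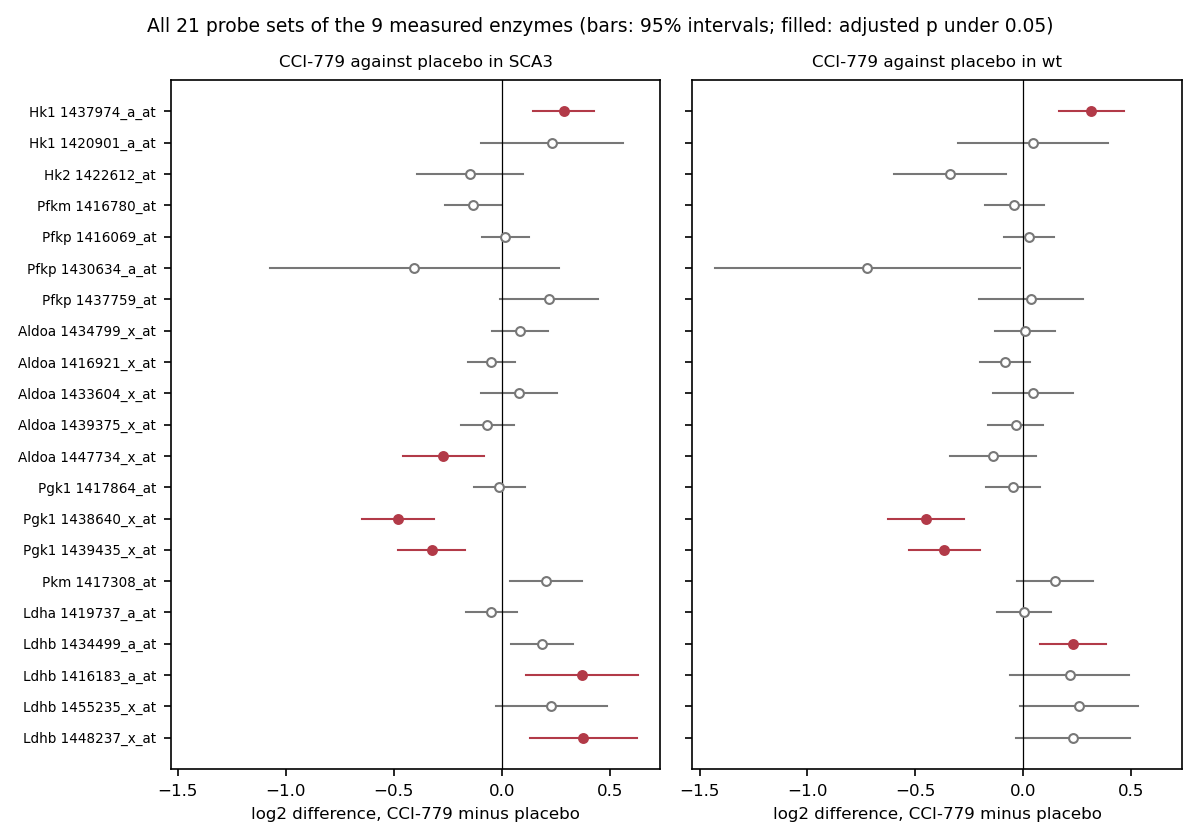
Log2 difference between CCI-779 and placebo (horizontal axis) for all 21 probe sets of the 9 measured enzymes, in SCA3 (left) and wt (right), with 95% intervals; filled points passed an adjusted p of 0.05. In SCA3 there are 3 filled points right of 0 and 3 left of it, in wt 2 and 2, and the 2 Pgk1 probe sets with the suffix x are left of 0 in both while 1417864_at is at -0.01 and -0.05.

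Hk1, the main brain hexokinase, had the clearest rise among the members measured by their brightest probe set. On 1437974_a_at its log2 intensity was 11.27, 11.13, 11.08 and 11.15 in wt placebo and 11.49, 11.45, 11.45, 11.52 and 11.45 in wt CCI-779. Among SCA3 arrays it read 11.32, 11.12, 11.37, 11.21 and 11.42 under placebo and 11.55, 11.73, 11.38, 11.56 and 11.65 under CCI-779. All 5 treated wt arrays lay above all 4 wt placebo arrays, and in SCA3 treated replicate 3 lay within the placebo range. The difference was 0.29 ± 0.07 (SE) in SCA3, or 1.22-fold (adjusted p = 0.0101, limma), and 0.31 ± 0.07 in wt, or 1.24-fold (adjusted p = 0.0109, limma).

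The order of the Hk1 group means was SCA3 CCI-779 (11.57), wt CCI-779 (11.47), SCA3 placebo (11.29) and wt placebo (11.16), and neither genotype comparison passed (0.13 under placebo and 0.10 under CCI-779). The call in SCA3 held when any 1 array was left out (adjusted p 0.00288 to 0.0314) and was lost without SCA3 CCI-779 replicates 2 and 5, where the difference was 0.21 (adjusted p = 0.0957, limma). The other Hk1 probe set, 1420901_a_at, differed by 0.23 in SCA3 and by 0.04 in wt (adjusted p = 0.335 and 0.885, limma). In it wt CCI-779 replicate 1 read 9.75 while the other 4 arrays of that group read 10.53 to 10.65, and without that array the wt difference was 0.21 (adjusted p = 0.304, limma).

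Hk2 is the hexokinase that growth factors and HIF1 induce in many tissues. On its 1 probe set, 1422612_at, it was close to the minimum level for testing, with a mean of 4.88. It read 4.94, 5.58, 4.83 and 5.06 in wt placebo and 4.84, 4.76, 4.65, 4.84 and 4.73 in wt CCI-779. The SCA3 arrays read 5.10, 4.99, 4.84, 4.79 and 4.85 under placebo and 4.85, 4.86, 4.46, 4.83 and 4.84 under CCI-779. The treated and placebo arrays overlapped in both genotypes, and 1 wt placebo array was the highest of all. The difference was -0.15 in SCA3 and -0.34 in wt, and neither passed (adjusted p = 0.428 and 0.0805, limma). After centring each array on its median, Hk2 passed in wt at -0.44 (adjusted p = 0.039, limma).

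**Figure D2:**
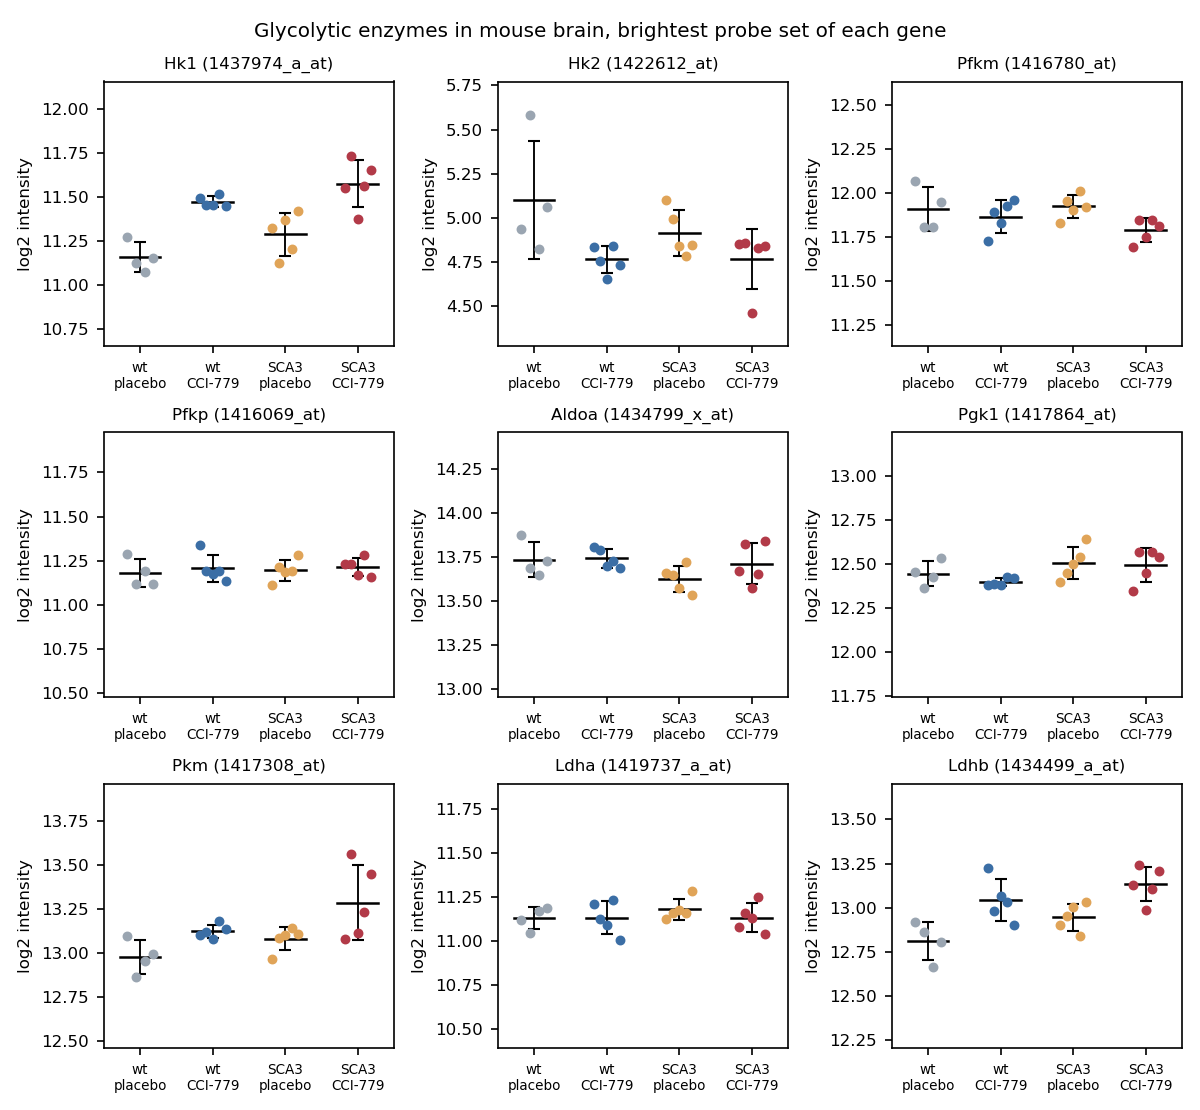
Log2 intensity (vertical axis) of each measured enzyme on its brightest probe set, by group, with a point per array and bars for mean and SD (n = 4, 5, 5 and 5 from left to right). The wt CCI-779 arrays of Hk1 (11.45 to 11.52) all lie above the wt placebo arrays (11.08 to 11.27), and for most of the other enzymes the 4 groups overlap.

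Pfkm and Pfkp encode the muscle and platelet types of phosphofructokinase, the step at which ATP, citrate and fructose-2,6-bisphosphate set the rate of glycolysis. Pfkm (1416780_at) read 12.07, 11.81, 11.81 and 11.95 in wt placebo and 11.73, 11.89, 11.83, 11.93 and 11.96 in wt CCI-779. In SCA3 placebo it read 11.83, 11.96, 11.90, 12.01 and 11.92, and in SCA3 CCI-779 11.69, 11.85, 11.75, 11.84 and 11.81. Groups overlapped in both genotypes, with 3 of the 5 treated SCA3 arrays below every SCA3 placebo array. The difference of -0.13 in SCA3 did not pass (adjusted p = 0.15, limma) unless arrays were centred on their medians (-0.19, adjusted p = 0.0323), and that of -0.04 in wt did not pass (adjusted p = 0.698, limma).

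Pfkp differed little on its brightest probe set and was scattered on a dimmer one. On 1416069_at its group means were 11.18 (placebo) and 11.21 (CCI-779) in wt, and 11.20 (placebo) and 11.21 (CCI-779) in SCA3, with all 19 arrays between 11.11 and 11.34. The drug difference was 0.02 in SCA3 (95% interval -0.09 to 0.13) and 0.03 in wt (-0.09 to 0.14). On 1430634_a_at the 5 SCA3 CCI-779 arrays read 8.36, 8.59, 8.66, 8.61 and 8.74, all below the SCA3 placebo arrays at 8.90, 8.90, 9.03, 8.91 and 9.23.

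That probe set also read 9.56, 9.05, 8.85 and 9.21 in wt placebo and 6.68, 8.93, 8.79, 8.77 and 9.04 in wt CCI-779, where the lone low value is replicate 1. The Pfkp differences on 1430634_a_at, -0.40 in SCA3 and -0.72 in wt, did not pass (adjusted p = 0.418 and 0.165, limma). Without wt CCI-779 replicate 1 the wt difference was -0.28 (adjusted p = 0.177, limma), and the SCA3 difference passed (adjusted p = 0.0195, limma). The third Pfkp probe set, 1437759_at, went the other way in SCA3, at 0.22 (adjusted p = 0.18, limma), and passed only without SCA3 CCI-779 replicate 1 (adjusted p = 0.036, limma).

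Aldoa, the aldolase of muscle and neurons, had no call on 4 of its 5 probe sets. On the brightest, 1434799_x_at, it read 13.87, 13.69, 13.65 and 13.73 in wt placebo and 13.81, 13.79, 13.70, 13.73 and 13.69 in wt CCI-779. Among SCA3 arrays it read 13.66, 13.65, 13.57, 13.72 and 13.53 under placebo and 13.67, 13.82, 13.58, 13.65 and 13.84 under CCI-779. These groups overlapped, and the differences of 0.09 in SCA3 and 0.01 in wt did not pass (adjusted p = 0.372 and 0.953, limma). Probe sets 1416921_x_at, 1433604_x_at and 1439375_x_at differed by -0.05, 0.08 and -0.07 in SCA3 and by -0.09, 0.04 and -0.04 in wt, and none passed, although 1416921_x_at did in wt after centring (-0.19, adjusted p = 0.0387, limma).

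The dimmest Aldoa probe set, 1447734_x_at, fell in SCA3 mice given the drug. It read 10.35, 9.97, 10.40, 10.31 and 9.98 in SCA3 CCI-779 and 10.52, 10.58, 10.41, 10.53 and 10.32 in SCA3 placebo. The 2 lowest treated arrays are replicates 2 and 5, and the groups overlapped. The difference was -0.27 ± 0.09 (SE; adjusted p = 0.0488, limma), and -0.12 without these 2 arrays (adjusted p = 0.389, limma).

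This Aldoa call was also lost on leaving out any 1 of 12 arrays: replicates 2 and 5 of SCA3 CCI-779, 1 to 4 of SCA3 placebo, 2 to 5 of wt CCI-779, and 2 and 4 of wt placebo (adjusted p up to 0.137). In wt 1447734_x_at differed by -0.14 (adjusted p = 0.333, limma).

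Pgk1 encodes phosphoglycerate kinase, the first ATP-making step of the pathway, and 2 of its 3 probe sets were lower under CCI-779 while the brightest had no call. On 1417864_at, the brightest, it read 12.45, 12.36, 12.43 and 12.54 in wt placebo and 12.38, 12.39, 12.38, 12.43 and 12.42 in wt CCI-779. The SCA3 arrays read 12.40, 12.45, 12.50, 12.54 and 12.64 under placebo and 12.35, 12.57, 12.45, 12.57 and 12.54 under CCI-779. The groups overlapped, with differences of -0.01 in SCA3 (95% interval -0.13 to 0.11) and -0.05 in wt (-0.17 to 0.08).

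On 1438640_x_at the same enzyme read 12.46, 12.53, 12.55 and 12.57 in wt placebo and 12.13, 11.97, 12.17, 12.07 and 12.02 in wt CCI-779. In SCA3 placebo Pgk1 read 12.35, 12.53, 12.49, 12.66 and 12.35 there, and in SCA3 CCI-779 11.99, 11.84, 12.12, 12.21 and 11.81. Every treated array lay below every placebo array of its genotype. The probe set fell by 0.48 ± 0.08 (SE) in SCA3, or 1.39-fold (adjusted p = 0.00108, limma), and by 0.45 ± 0.08 in wt, or 1.37-fold (adjusted p = 0.00346, limma). Both calls held when any 1 array was left out and, in SCA3, without replicates 2 and 5 (-0.37, adjusted p = 0.0133, limma).

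On 1439435_x_at Pgk1 read 11.77, 11.98, 11.96 and 11.99 in wt placebo and 11.60, 11.53, 11.55, 11.54 and 11.57 in wt CCI-779. In SCA3 placebo it read 11.81, 11.84, 11.72, 12.10 and 11.88, and in SCA3 CCI-779 11.63, 11.37, 11.57, 11.70 and 11.45. Again no treated array reached a placebo array of its genotype. Pgk1 fell there by 0.32 ± 0.07 (SE) in SCA3 (adjusted p = 0.00774, limma) and by 0.37 ± 0.08 in wt (adjusted p = 0.00718, limma), and the SCA3 call was lost without replicates 2 and 5 (-0.24, adjusted p = 0.081, limma).

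Within single arrays, Pgk1 on 1417864_at minus Pgk1 on 1438640_x_at was 0.33 to 0.73 in SCA3 CCI-779 and -0.12 to 0.29 in SCA3 placebo, and 0.21 to 0.41 in wt CCI-779 and -0.16 to -0.0011 in wt placebo (log2). The treated and placebo ranges did not meet in either genotype. This difference was chosen after its values were seen, so it has no test. Over all members, 3 probe sets in SCA3 had every treated array below every placebo array (2 of Pgk1 and Pfkp 1430634_a_at; background 4.67% lower) and 0 had every one above (background 8.51% higher). In wt the counts were 2 below (both Pgk1; background 2.96%) and 1 above (Hk1; background 12.1%).

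**Figure D3:**
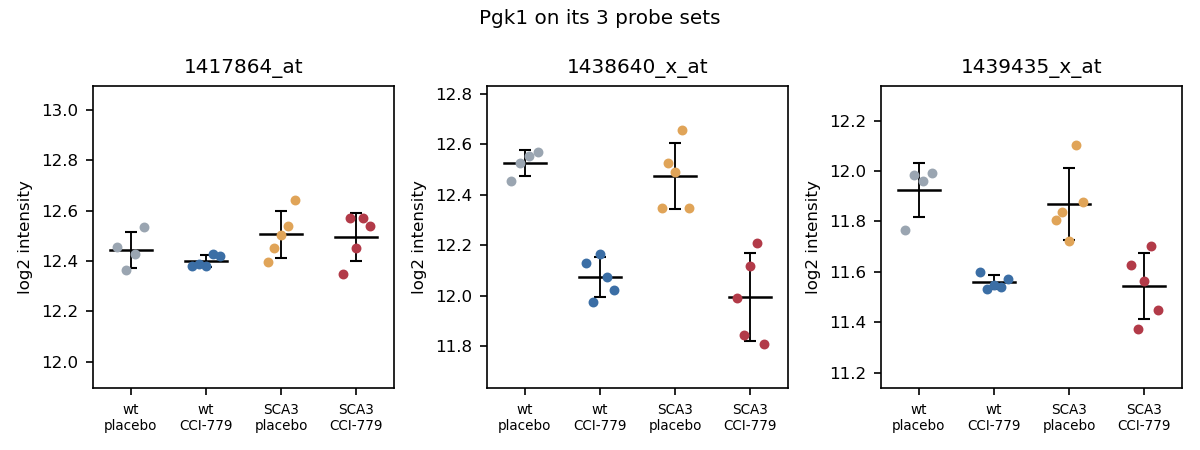
Log2 intensity (vertical axis) of Pgk1 on its 3 probe sets, by group, with a point per array and bars for mean and SD. On 1438640_x_at the treated arrays (11.81 to 12.21) lie below the placebo arrays (12.35 to 12.66), on 1439435_x_at likewise (11.37 to 11.70 against 11.72 to 12.10), and on 1417864_at the 4 groups overlap.

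Pkm encodes pyruvate kinase of muscle and brain, which makes pyruvate and ATP in the last step of the pathway, and its single probe set cannot separate the splice forms M1 and M2. It read 13.10, 12.86, 12.96 and 13.00 in wt placebo and 13.10, 13.12, 13.08, 13.18 and 13.14 in wt CCI-779. In SCA3 placebo Pkm read 12.97, 13.09, 13.10, 13.14 and 13.11, and in SCA3 CCI-779 13.08, 13.56, 13.11, 13.23 and 13.45. The 2 highest of all 19 values are SCA3 CCI-779 replicates 2 and 5. The difference was 0.20 in SCA3 and 0.15 in wt (adjusted p = 0.0918 and 0.264, limma), and neither passed. Without those 2 arrays the SCA3 difference was 0.06 (adjusted p = 0.603, limma), and it passed without SCA3 CCI-779 replicate 1 or 3 (adjusted p down to 0.0375, limma).

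Ldha and Ldhb encode the 2 subunits of lactate dehydrogenase: the A subunit prevails in tissues that make lactate, and the B subunit in those that use it, such as heart and neurons. Ldha (1419737_a_at) read 11.12, 11.04, 11.17 and 11.19 in wt placebo and 11.21, 11.13, 11.09, 11.23 and 11.00 in wt CCI-779. Among SCA3 arrays it read 11.13, 11.16, 11.18, 11.16 and 11.28 under placebo and 11.08, 11.16, 11.13, 11.25 and 11.04 under CCI-779. All 4 groups overlapped. The drug difference was -0.05 in SCA3 (95% interval -0.17 to 0.07) and 0.00 in wt (-0.12 to 0.13).

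All 4 probe sets of Ldhb were positive under CCI-779 in both genotypes, by 0.19 to 0.38 in SCA3 and by 0.22 to 0.26 in wt, and 2 passed in SCA3 and 1 in wt. On the brightest, 1434499_a_at, Ldhb read 12.92, 12.86, 12.67 and 12.81 in wt placebo and 13.22, 12.98, 13.07, 13.03 and 12.90 in wt CCI-779. The SCA3 arrays read 12.90, 12.95, 13.00, 12.84 and 13.03 under placebo and 13.13, 13.24, 12.99, 13.10 and 13.21 under CCI-779. One treated array in each genotype lay within its placebo range. The difference was 0.19 ± 0.07 (SE) in SCA3 (adjusted p = 0.0704, limma) and 0.23 ± 0.07 in wt, or 1.17-fold (adjusted p = 0.0483, limma).

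This wt call of Ldhb was a narrow one. It was lost after centring (0.12, adjusted p = 0.2) and on leaving out any 1 of 15 arrays: replicates 1, 4 and 5 of SCA3 CCI-779, all of SCA3 placebo, 1 to 4 of wt CCI-779, and 2 to 4 of wt placebo (adjusted p up to 0.155). In SCA3 the same probe set passed without SCA3 CCI-779 replicate 3 or without wt CCI-779 replicate 1 (adjusted p down to 0.0366, limma).

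On 1448237_x_at Ldhb read 12.23, 12.76, 12.09, 12.36 and 12.60 in SCA3 CCI-779 and between 11.79 and 12.18 on the 5 arrays of SCA3 placebo. On 1416183_a_at it read 12.23, 12.76, 12.09, 12.38 and 12.71 in SCA3 CCI-779 and 11.77, 12.04, 12.28, 12.06 and 12.16 in SCA3 placebo. In both, replicates 2 and 5 were the highest arrays. Replicate 3 lay within the placebo range on 1448237_x_at, and replicates 1 and 3 did on 1416183_a_at. Ldhb rose by 0.38 ± 0.12 (SE; adjusted p = 0.0382, limma) on the former and by 0.37 ± 0.12 (adjusted p = 0.0498, limma) on the latter, and without replicates 2 and 5 the differences were 0.20 (adjusted p = 0.308) and 0.17 (adjusted p = 0.389).

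The call on 1448237_x_at was lost without any 1 of 6 arrays (replicates 2, 4 and 5 of SCA3 CCI-779 and 1, 2 and 4 of SCA3 placebo; adjusted p up to 0.109). That on 1416183_a_at was lost without any 1 of 14, namely replicates 2, 4 and 5 of SCA3 CCI-779, all of SCA3 placebo but 3, 2 to 5 of wt CCI-779, and 1, 3 and 4 of wt placebo (adjusted p up to 0.14). The fourth Ldhb probe set, 1455235_x_at, differed by 0.23 in SCA3 and 0.26 in wt and passed in neither (adjusted p = 0.218 and 0.199, limma).

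Genotype left the glycolytic enzymes without a call. Between SCA3 and wt mice given placebo 0 of 21 member probe sets passed in limma (background 0.00977%) and 0 had an unadjusted p under 0.05 (background 5.75%), with the smallest adjusted p of 0.885 at Ldhb 1434499_a_at (0.13). The median log2 difference was 0.02, against 0.01 over all tested probe sets, and the members ranged from -0.19 (Hk2) to 0.23 (Ldhb 1455235_x_at). Between SCA3 and wt mice given CCI-779, 0 of 21 passed in limma (background 0.00977%) and 2 had an unadjusted p under 0.05 (background 15.4%), both Ldhb: 1416183_a_at at 0.29 and 1448237_x_at at 0.27 (adjusted p = 0.281 and 0.288, limma). In neither genotype comparison did a member have arrays that did not overlap, where the background was 1.21% higher and 1.29% lower under placebo and 0.552% higher and 1.83% lower under CCI-779.

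Whether the drug response differed between genotypes was tested by the interaction, in which 0 of 21 member probe sets passed (background 0%). Of these, 0 had an unadjusted p under 0.05 (background 7.68%), and the smallest adjusted p was 0.782 (limma). For the Hk1 probe set 1437974_a_at the response in SCA3 minus that in wt was -0.03 (95% interval -0.24 to 0.18), and for Pgk1 1438640_x_at it was -0.03 (-0.27 to 0.21). For the Pgk1 probe set 1417864_at it was 0.04 (-0.14 to 0.21). These intervals do not show that both genotypes responded alike.

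Isozymes of a step were then set against each other within each array, since a ratio is free of any single factor that scales a whole array. It is not free of shifts that depend on intensity, and Hk1 and Hk2 lie far apart (means 11.38 and 4.88). The log2 ratio compares groups only, because different probe sets bind with different strength. Of 12 exact two-sided permutation tests (Hk1/Hk2, Pfkm/Pfkp, Ldha/Ldhb and Aldoa/Aldoc in 3 contrasts), 4 passed an adjusted p of 0.05 over the 12, where the smallest p that 5 against 5 or 5 against 4 arrays allow is 0.00794.

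The Hk1/Hk2 log2 ratio was 6.34, 5.54, 6.25 and 6.09 in wt placebo and 6.66, 6.69, 6.80, 6.67 and 6.72 in wt CCI-779. In SCA3 placebo it was 6.22, 6.13, 6.53, 6.42 and 6.57, and in SCA3 CCI-779 6.70, 6.87, 6.92, 6.73 and 6.81. Every treated array was above every placebo array of its genotype. The Hk1/Hk2 ratio was higher by 0.43 in SCA3 and by 0.65 in wt (p = 0.00794 and adjusted p = 0.0317 in each, exact permutation test). Hk2 was near the minimum level for testing.

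The Ldha/Ldhb log2 ratio was -1.80, -1.82, -1.49 and -1.62 in wt placebo and -2.01, -1.86, -1.98, -1.80 and -1.90 in wt CCI-779. Among SCA3 arrays it read -1.77, -1.80, -1.83, -1.68 and -1.75 under placebo and -2.05, -2.09, -1.86, -1.85 and -2.17 under CCI-779. All SCA3 treated arrays were below all SCA3 placebo arrays, and in wt replicate 4 overlapped. The Ldha/Ldhb ratio was lower by 0.24 in SCA3 (p = 0.00794, adjusted p = 0.0317, exact permutation test) and by 0.23 in wt (p = 0.0238, adjusted p = 0.0571).

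The Pfkm/Pfkp ratio was 0.46 to 0.66 in SCA3 CCI-779 and 0.64 to 0.82 in SCA3 placebo, a mean difference of -0.15 (p = 0.0159, adjusted p = 0.0476, exact permutation test). In wt it was 0.39 to 0.82 under CCI-779 and 0.62 to 0.83 under placebo, a mean difference of -0.07 (p = 0.548, adjusted p = 0.657, exact permutation test). The Aldoa/Aldoc ratio, where Aldoc is the aldolase of astrocytes and Purkinje cells, did not pass under the drug in SCA3 (0.15, adjusted p = 0.25) or wt (0.04, adjusted p = 0.788). None of the 4 ratios passed between SCA3 and wt under placebo, where the nearest was Aldoa/Aldoc at -0.23 (p = 0.0556, adjusted p = 0.111, exact permutation test).

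With the mean of all probe sets of a gene in place of the brightest, 0 of 12 passed in the exact permutation test, and the SCA3 differences were 0.41 for Hk1/Hk2, -0.08 for Pfkm/Pfkp and -0.34 for Ldha/Ldhb. Without SCA3 CCI-779 replicates 2 and 5, 0 of 12 passed, where the smallest p that 3 against 5 arrays allow is 0.0179. Pfkm/Pfkp and Ldha/Ldhb were at that smallest p in SCA3. The wt Hk1/Hk2 test kept its arrays and its p of 0.00794, with an adjusted p of 0.0714 (exact permutation test). In SCA3 treated and placebo arrays overlapped for Aldoa/Aldoc and not for the other ratios. This count therefore cannot tell a lost difference from the smaller number of arrays. The SCA3 differences were then 0.41 for Hk1/Hk2, -0.19 for Pfkm/Pfkp and -0.15 for Ldha/Ldhb. On leaving out 1 array the count was 2 without any 1 of 15 arrays, 3 without SCA3 CCI-779 replicate 1 or 4, 4 without SCA3 CCI-779 replicate 5 and 5 without wt placebo replicate 2.

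**Figure D4:**
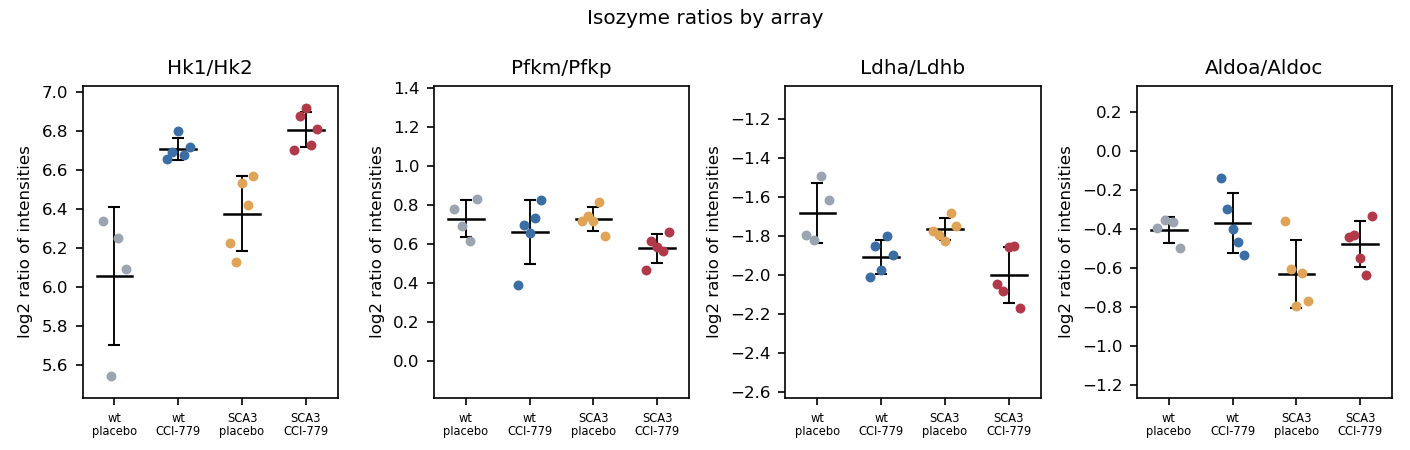
Log2 ratio of the intensities of 2 isozymes (vertical axis) in each array, by group, with bars for mean and SD. Hk1/Hk2 lies higher in the treated arrays of both genotypes (6.66 to 6.92 against 5.54 to 6.57 under placebo), Ldha/Ldhb lies lower in treated SCA3 arrays, and Aldoa/Aldoc overlaps between treated and placebo arrays.

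The rest of glycolysis and its neighbouring pathways were read from 8 lists, by the brightest probe set of each gene, beside 17.1% of all genes passing in SCA3 (11.0% higher, 6.09% lower) and 13.1% in wt (11.5% higher, 1.64% lower). The list medians in SCA3 and wt, beside 0.0022 and 0.08 over all 10454 genes read in the same way, were 0.05 and 0.10 for the other glycolytic enzymes, 0.18 and 0.38 for fructose-2,6-bisphosphate and gluconeogenesis, and -0.01 and 0.02 for transport. They were -0.00090 and 0.11 for pyruvate entry into mitochondria, -0.17 and -0.02 for the pentose phosphate pathway and 0.03 and 0.04 for glycogen. For HIF1 and MYC regulators they were 0.04 and 0.12, and for HIF1 targets 0.08 and 0.14. Centring arrays on their medians lowers every wt difference by 0.10.

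Of 8 other glycolytic enzymes measured (16 listed), 2 rose in SCA3: Eno2, the neuronal enolase and also 1 of the neuronal markers above, by 0.36 (adjusted p = 0.00727, limma) and Pfkl, the liver type of phosphofructokinase, by 0.47 (adjusted p = 0.0155, limma). In wt 1 rose, Eno2 by 0.28 (adjusted p = 0.0437, limma). Tpi1, Pgam1, Bpgm, Ldhc, Eno3 and Aldoc passed in neither genotype. Both SCA3 calls were lost without SCA3 CCI-779 replicates 2 and 5 (Eno2 0.24, adjusted p = 0.0741; Pfkl 0.27, adjusted p = 0.154), and the wt call of Eno2 was lost after centring (0.17, adjusted p = 0.138) and on leaving out any 1 of the wt CCI-779 arrays, of replicates 2 to 4 of wt placebo, or of replicates 3 and 4 of SCA3 placebo.

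Of 6 genes that set fructose-2,6-bisphosphate or run gluconeogenesis, 1 rose in SCA3, Pfkfb4 by 0.49 (adjusted p = 0.0258, limma), a call lost on leaving out any 1 of 4 arrays (replicates 4 and 5 given CCI-779, 1 and 2 given placebo). Without SCA3 CCI-779 replicates 2 and 5, 0 of the 6 rose in SCA3, and 1 rose without wt CCI-779 replicate 1 as well. In wt 3 rose: Pfkfb2 by 0.47, Pcx (pyruvate carboxylase) by 0.38 and Pck2 by 0.38 (adjusted p = 0.00888, 0.0102 and 0.0256, limma). Pck2 was lost on leaving out replicate 1 of wt CCI-779 or any of 2 to 4 of wt placebo, and after centring (0.28, adjusted p = 0.0648). Of 6 glucose and lactate transporters 1 rose in each genotype, Slc2a3, the neuronal glucose transporter GLUT3, by 0.30 in SCA3 and 0.41 in wt (adjusted p = 0.0147 and 0.00494, limma). Slc2a3 held without SCA3 CCI-779 replicates 2 and 5 (0.33, adjusted p = 0.0453, limma).

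Downstream of pyruvate, 1 of 11 genes fell in SCA3, Pdhb of pyruvate dehydrogenase by 0.19 (adjusted p = 0.0366, limma), and 0 passed in wt, where the nearest were Mpc1, the mitochondrial pyruvate carrier, at 0.26 (adjusted p = 0.0589, and past the threshold without wt placebo replicate 1) and Pdhb at -0.16 (adjusted p = 0.107). After quantile normalization and after centring Pdhb passed in wt as well (-0.19 and -0.26, adjusted p = 0.0466 and 0.0115, limma). The Pdhb call in SCA3 was lost on leaving out any 1 of 7 arrays: replicates 1, 2 and 5 of SCA3 CCI-779 and 2 to 5 of SCA3 placebo. It was also lost without SCA3 CCI-779 replicates 2 and 5 together. In the pentose phosphate pathway, the branch that supplies NADPH and ribose, 3 of 6 genes fell in SCA3: Tkt (transketolase) by 0.31, Taldo1 (transaldolase) by 0.32 and Pgd (phosphogluconate dehydrogenase) by 0.38 (adjusted p = 0.00573, 0.00646 and 0.018, limma). In wt 0 of 6 passed, with Tkt at -0.16 and Taldo1 at -0.12, and both passed after centring (-0.26 and -0.23, adjusted p = 0.0356 and 0.0364, limma). Whether the genotypes differ was tested by the interaction, in which 0 of the 6 passed. Without SCA3 CCI-779 replicates 2 and 5 only Taldo1 of the 3 kept its call (-0.32, adjusted p = 0.0335), and without wt CCI-779 replicate 1 as well all 3 passed. Oligodendrocyte markers, which fell in the same comparison, are given above.

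Of 12 genes of glycogen metabolism 1 rose and 2 fell in SCA3, and 2 rose and 1 fell in wt. Without SCA3 CCI-779 replicates 2 and 5, 0 rose and 1 fell in SCA3. Without wt CCI-779 replicate 1 as well, 1 rose and 1 fell there. Pygb, the brain glycogen phosphorylase, rose by 0.30 in SCA3 and 0.51 in wt (adjusted p = 0.0128 and 0.00137, limma), and without SCA3 CCI-779 replicates 2 and 5 the SCA3 difference was 0.30 with an adjusted p of 0.0528. Gyg (glycogenin) fell by 0.48 in SCA3 (adjusted p = 0.00429, limma), Phka1 rose by 0.49 in wt (adjusted p = 0.02, limma), and Ugp2, which makes UDP-glucose, fell by 0.19 in SCA3 and 0.20 in wt (adjusted p = 0.037 and 0.0389, limma). Ugp2 was lost in each genotype on leaving out any 1 of 7 arrays: replicates 1, 2 and 5 of SCA3 CCI-779 and 1, 2, 4 and 5 of SCA3 placebo, and for wt 1, 2, 3 and 5 given CCI-779 and 2 to 4 given placebo. Phka1 was lost without wt placebo replicate 2 or 3.

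Of 9 HIF1 and MYC regulators, genes of the arm that mTOR is known to feed, 0 passed in SCA3, with Hif1a at 0.03 and Egln1 at 0.27, and 1 rose in wt, Egln1, the oxygen sensor that marks HIF1 for destruction, by 0.40 (adjusted p = 0.0356, limma). That call was lost after centring (0.30, adjusted p = 0.0912) and on leaving out replicate 1 or 3 of wt CCI-779 or any of 2 to 4 of wt placebo. After quantile normalization and after centring 0 of the 9 rose and 1 fell in wt, Egln2, another oxygen sensor of the same family (-0.20 and -0.22, adjusted p = 0.0433 and 0.0332, limma). Of 10 HIF1 targets outside glycolysis, Higd1a rose by 0.27 in SCA3 and 0.34 in wt (adjusted p = 0.0048 and 0.00281, limma), while Bnip3 and Ndrg1 fell by 0.30 and 0.37 in SCA3 (adjusted p = 0.00693 and 0.00268, limma). In wt Bnip3 was at -0.19 (adjusted p = 0.0849), and passed after centring and without SCA3 CCI-779 replicate 2, and Ndrg1 was at -0.09 (adjusted p = 0.415). Ndrg1 is also abundant in oligodendrocytes. In both genotype contrasts and the interaction 0 genes of the 8 lists passed in limma, beside 0% of all genes for genotype under placebo and for the interaction and 0.0191% (all lower) for genotype under CCI-779.

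**Figure D5:**
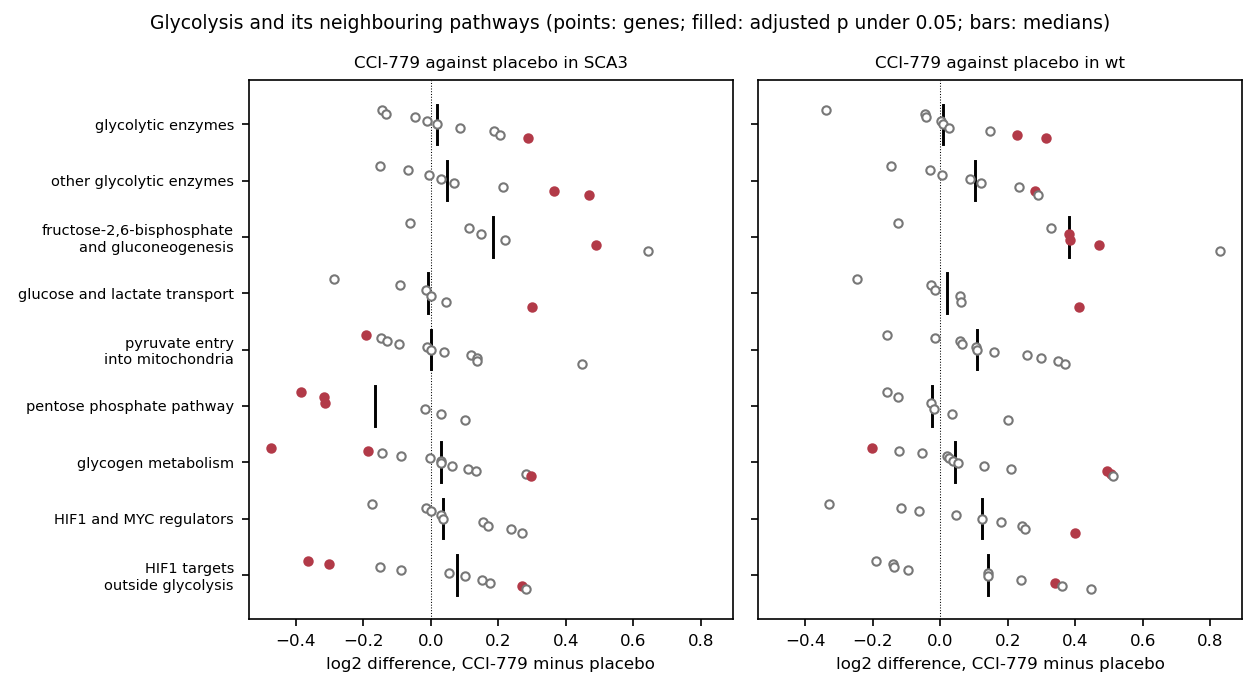
Log2 difference between CCI-779 and placebo (horizontal axis) for the members and 8 neighbouring lists, with a point per gene on its brightest probe set, filled where the adjusted p is under 0.05, and bars for list medians. In SCA3 the pentose phosphate list has 3 filled points left of 0 and a median of -0.17, and in wt the list of fructose-2,6-bisphosphate and gluconeogenesis has 3 filled points and a median of 0.38.

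The 3 members whose group means spanned the widest range on their brightest probe set were Hk1, Hk2 and Ldhb. Genes were compared with them by the root mean square difference of log2 values over the 19 arrays, each gene centred on its own mean, among 10445 genes. Nearest to Hk1 were Sec31a (0.0652) and Strap (0.0668), nearest to Ldhb were Rplp2 (0.0616) and Mcrs1 (0.0632), and nearest to Hk2 were Hyou1 (0.128) and Ryk (0.142). All points share the same arrays and the same normalization, so these distances are a description only.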

How the data were processed

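Brain RNA of 19 mouse samples was hybridised to single-colour Affymetrix arrays. Linear intensity values, 1 table for all arrays, were deposited, and the submitters' processing notes name GCRMA (version: not given in the sources used here). That method adjusts background using probe sequence, equalises arrays and combines the probes of a set, so an overall shift between groups can be removed or left in part. The number of arrays limits the precision.

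Log2 was taken with no pseudocount. Of 45037 probe sets that are not controls, 20473 (45.5%) with a mean log2 of at least 4 were tested with limma 3.58.1 in R 4.3.3, in 1 fit of 4 group means (15 residual degrees of freedom, prior 2.59), two-sided, with Benjamini-Hochberg adjustment over all tested probe sets of a contrast and a threshold of 0.05. The script was tested on simulated data. The platform annotation named the genes. A gene was represented by its probe set with the highest mean, and other probe sets are given where they differ. All members are named, and from each other list those past the threshold (up to 4, or the 2 nearest). Isozyme ratios used exact permutation tests, 12 of the 15 planned, because Eno1 had no probe set. The wt CCI-779 sample called replicate 1 has no number in its label. The labels do not say whether equal replicate numbers pair arrays. Over 24 same-number pairs the correlation of deviations had a median of 0.03, with 9 over 0.1. Over 97 pairs of different number the median was -0.0054, with 30 over 0.1. These correlations cannot settle whether arrays were paired. Members and lists were chosen with earlier results of these data known. The alternatives were other filters, normalizations, variance models, thresholds and left-out arrays.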

Additional observations from a re-analysis of the deposited data

Results flagged for a closer look

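Each member's values within a group were searched for a single array far from the others (Dixon's criterion at 95%), and 8 of 100 groups looked at, ratios included, had one, where chance gives about 1 in 20. Of the 8, 6 were wt CCI-779 replicate 1, the array that also stands apart over all probe sets. It read 9.75 on Hk1 1420901_a_at (others 10.53 to 10.65), 11.34 on Pfkp 1416069_at (others 11.14 to 11.19), 6.68 on Pfkp 1430634_a_at (others 8.77 to 9.04) and 5.96 on Pfkp 1437759_at (others 5.91 to 5.92). On Ldhb it read 12.32 with 1416183_a_at (others 12.06 to 12.12) and 12.40 with 1448237_x_at (others 12.02 to 12.11). The actin 3′ minus 5′ difference of this array was 2.55, the highest of the 19, and its part in these values was not tested. The remaining 2 were Hk2 in SCA3 CCI-779 replicate 3, at 4.46 (others 4.83 to 4.86), and Pgk1 1439435_x_at in wt placebo replicate 1, at 11.77 (others 11.96 to 11.99).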

How the results depend on the processing

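Over all member probe sets, contrasts and alternatives, 3230 values kept their direction and side of the threshold or changed sign while called in neither setting (162 such sign changes), 81 lost a call, 18 gained one and 0 reversed a call.

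The count of glycolytic probe sets past the threshold under CCI-779 in SCA3, 6, was 3 with no filter, 3 with array weights, 2 at an adjusted p of 0.01, 1 without SCA3 CCI-779 replicates 2 and 5, 2 without wt CCI-779 replicate 1 as well, and 3 to 8 on leaving out single arrays. In wt the 4 became 2 with the replicate number as a block, 2 at 0.01, and 3 to 4 on leaving out single arrays. Over all tested probe sets, the 3107 in SCA3 became 1106 at 0.01, 1203 without SCA3 CCI-779 replicates 2 and 5, and 1956 (without SCA3 CCI-779 replicate 2) to 4048 (without wt CCI-779 replicate 1) on leaving out single arrays. The 2435 in wt became 1584 with no filter, 1364 with the compared groups alone, 1384 with the replicate block, 693 at 0.01, 4046 at 0.1, and 1343 (without wt placebo replicate 3) to 2717 on leaving out single arrays. Of the all-probe-set calls, the share that was higher in SCA3 was 67.4%, and 52.8% after quantile normalization and 44.7% after centring. In wt it was 82.2%, 61.3% and 45.2%, and centring lowered the median wt difference by 0.10.

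The 2 calls over all probe sets for SCA3 against wt under placebo became 1 with no filter, quantile normalization or the compared groups alone, 0 with the replicate block, at 0.01 or without the doubted arrays (with and without wt CCI-779 replicate 1), and 0 to 8 on leaving out single arrays. The 2 for SCA3 against wt under CCI-779 became 1 with no filter or the compared groups alone, 6 with array weights, 6 at 0.1, 0 with the replicate block, at 0.01 or without SCA3 CCI-779 replicates 2 and 5, and 0 to 8 on leaving out single arrays. The 4 isozyme tests that passed became 0 with the mean of all probe sets of a gene. With the replicate block the count was 0, and that test cannot reach the threshold with so few pairs of arrays. Without the doubted arrays it was 0, where the smallest p that 3 against 5 arrays allow is 0.0179. On leaving out single arrays it was 2 to 5.

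With the replicate block, the wt calls of Hk1 1437974_a_at (adjusted p = 0.0503, limma) and Ldhb 1434499_a_at (0.179) and the SCA3 calls of Aldoa 1447734_x_at (0.066) and Ldhb 1416183_a_at (0.0597) were lost, and Pfkp 1430634_a_at passed in SCA3 (0.0256). The numbers are not known to pair the arrays. Alternatives that leave out several arrays were added after seeing the data. The cause of these changes was not tested. Of the member probe sets, that of Hk2 had the lowest mean log2 intensity, at 4.88.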
